A study of Mus musculus with 24 samples.

Results

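Cacna1e encodes the pore-forming alpha1E subunit of Cav2.3, the voltage-gated calcium channel that carries R-type current. Calcium channels of this family open on depolarization and let calcium into axon terminals and dendritic spines, and Cav2.3 is known in the hippocampus for calcium entry into spines and for plasticity at mossy fibre synapses, the output of dentate granule cells. DNA methylation at CpGs is usually low at CpG-rich promoters and high in gene bodies. The CpGs described here are all rows of the methylation table on chromosome 1 between 154388731 and 154886501 (GRCm38), which is the span of Cacna1e (ENSMUSG00000004110, minus strand, 154390731 to 154884501) with 2000 bp on each side. They numbered 118 of 694379, with each strand of a CpG counted separately, and they stood for 114 CpG dinucleotides, 59 rows on each strand. No row lay outside the gene span, and each of the 118 matched a CG in the GRCm38 genome sequence.

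DNA of micro-dissected dentate gyrus was profiled by reduced representation bisulfite sequencing (RRBS), in which DNA is cut at CCGG by MspI and, after bisulfite, unmethylated cytosines are read as thymines. There were 3 groups of 8 female C57BL/6JRj mice. Young STD mice were 3 months old and aged STD mice 17 months old, both from standard housing (STD), and aged ENR mice were 17 months old and had lived in environmental enrichment (ENR), large group enclosures with toys and tunnels, for 3 months from the age of 14 months. Each value is the percentage of methylated reads of 1 CpG in 1 mouse. The number of reads behind a value is unknown, so no confidence interval was computed, and p-values cover the spread between mice. The tissue holds several cell types, and a change in their shares and a change of methylation within a type cannot be told apart. Methylation at cell type marker genes was not examined here, so the tissue label was not checked.

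The gene was selected on the number of its CpGs with opposite aging and ENR differences in these mice. Group differences at the locus are therefore descriptions, with no test. The aging difference, which is the aged STD mean less the young STD mean, and the ENR difference, which is the aged ENR mean less the aged STD mean, also share the aged STD mice, so a high or low aged STD value moves both in opposite directions.

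Aged STD replicate 5 stood apart from the other mice. Over the CpGs outside the locus it deviated by −2.42 percentage points from the average of the covered mice, whereas the other mice lay between −0.878 and 1.60 points. It also had the fewest Cacna1e CpGs, 36 of 118. Values with and without it are given where it carries a result.

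Coverage of the locus was partial in every mouse. Young STD mice had a value at 61 to 86 Cacna1e CpGs (median 76.5) and averaged 75.4 ± 9.47 (SD, n = 8). The range was 36 to 86 for aged STD mice (median 72.5), with an average of 67.9 ± 18.8 (SD, n = 8). Aged ENR mice ranged from 49 to 97 (median 80.5) and averaged 78.6 ± 15.8 (SD, n = 8). The young STD and aged STD means were not told apart beyond the spread of the mice (two-sided exact permutation, p = 0.350, adjusted p = 0.350 over 2 comparisons), nor were the aged ENR and aged STD means (exact permutation p = 0.238, adjusted p = 0.350). Without aged STD replicate 5, the differences were −2.95 CpGs for aged STD minus young STD (exact permutation p = 0.688) and 6.20 CpGs for aged ENR minus aged STD (exact permutation p = 0.450). No CpG had a value in all 24 mice. The most widely covered one, an intronic CpG at position 154623923, had 23 mice, and the median CpG had 14.

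The 3 sequences below show where the contrasts along the gene arise, and capitals mark the CpGs with a measured row on either strand (GRCm38 plus strand, 5′ to 3′). The first, chr1:154726705-154726938, lies upstream of the main start at 154726356 and is shown as the promoter with low methylation, with 23 measured rows, of which 154726820 and 154726928 each reached 100% in 1 mouse (young STD replicate 1 and aged STD replicate 6). The second, chr1:154799429-154799608, is shown because it holds 6 of the 13 CpGs with opposite differences. The third, chr1:154488312-154488455, is shown because it holds the opposite-difference CpG with the most mice.
Main start promoter: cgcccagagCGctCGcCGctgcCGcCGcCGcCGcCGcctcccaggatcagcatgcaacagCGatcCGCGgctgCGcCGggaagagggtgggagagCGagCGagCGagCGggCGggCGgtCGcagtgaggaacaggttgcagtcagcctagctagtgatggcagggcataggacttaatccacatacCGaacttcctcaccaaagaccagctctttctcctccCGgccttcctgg
Exon window: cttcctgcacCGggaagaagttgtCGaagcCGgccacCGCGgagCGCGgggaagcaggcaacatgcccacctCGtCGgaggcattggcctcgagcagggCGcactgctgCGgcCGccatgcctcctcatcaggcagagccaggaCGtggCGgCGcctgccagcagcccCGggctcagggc
Intron window: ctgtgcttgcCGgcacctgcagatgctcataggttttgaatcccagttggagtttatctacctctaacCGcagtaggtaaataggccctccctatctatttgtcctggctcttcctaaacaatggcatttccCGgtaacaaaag
The promoter sequence holds 23 CG dinucleotides in 234 bases, the exon window 17 in 180 bases and the intron window 3 in 144 bases. The first 2 are GC-rich, at 66.2% and 71.1% G and C, against 47.2% in the third.

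The methylation level followed the position in the gene. The 28 CpGs within 1000 bp of the main start (154726216 to 154726928) were almost unmethylated, averaging 2.72% ± 5.42 (SD, n = 8) for young STD, 2.61% ± 4.17 for aged STD and 1.00% ± 0.982 for aged ENR mice. At 21 of these 28 CpGs every covered mouse had the same value. The highest mouse, young STD replicate 1, was at 15.7%. By contrast, the 3 CpGs near the upstream start at 154864067, which belongs to the protein-coding transcript Cacna1e-207, averaged 95.8% ± 9.32 (SD, n = 5) for young STD, 99.8% ± 0.406 (n = 7) for aged STD and 95.2% ± 12.6 (n = 7) for aged ENR mice. The 2 starts thus lay at opposite ends of the scale, and the lowest mouse at the upstream start, aged ENR replicate 4 at 66.7%, was above the highest mouse at the main start. That mouse was at 0% at the upstream-start CpG 154864316, where the ENR difference was −32.5 points.

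Downstream of the main start, most CpGs of the first intron near it were low, although 154722654 averaged 28.6% over 13 mice. The intronic CpG at 154723437 was at 0% in all 8 young STD mice and in 5 of 7 aged STD mice with a value, aged STD replicates 3 and 7 being at 51.3% and 100%. Among aged ENR mice, replicate 8 was at 31.7% and replicate 4 at 3.31%, and the other 5 were at 0%. Over the 68 intron CpGs the mean over all mice ranged from 0 to 100% (median 52.4%). The CpG at 154534915 was at 100% in all 13 covered mice, whereas 154600581 averaged 30.9% and 154706179 42.2%. The CpG with 23 mice, 154623923, was intermediate, at 27.1% ± 18.1 (SD, n = 8) for young STD, 21.5% ± 7.69 (n = 7) for aged STD and 12.8% ± 8.36 (n = 8) for aged ENR mice, and its highest mouse was young STD replicate 8 at 49.0%.

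**Figure D1:**
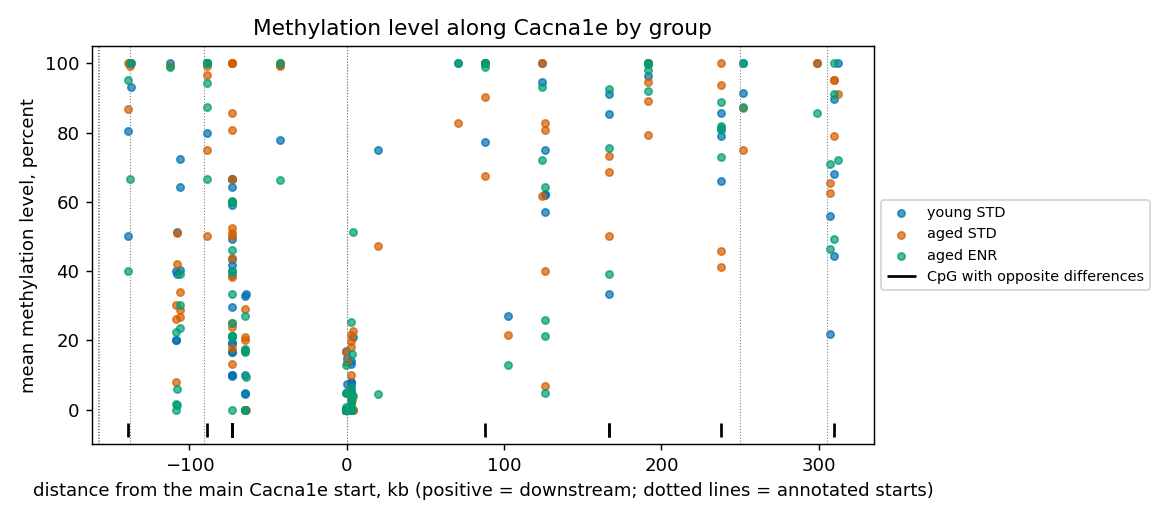
Group mean methylation level in percent of each of the 118 CpGs against the distance from the main start in kb, with dotted lines at annotated starts and ticks under the 13 CpGs with opposite differences. Levels were near 0% at the main start and spread up to 100% on both sides of it.

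Across feature classes, promoter CpGs (31, within 1000 bp of any Cacna1e start) were lower than intron CpGs (68) and exon CpGs (19). Within a mouse, introns were higher than promoters by 37.0 points ± 12.4 (SD, n = 24), in 23 of 24 mice (two-sided sign-flip permutation test, adjusted p = 1.5e-05 over 3 pairs, from the smallest p that 100000 permutations can give). Exons were higher than promoters by 49.2 points ± 34.9 (SD, n = 24), also in 23 of 24 mice (permutation test, adjusted p = 1.5e-05). Introns minus exons gave −12.2 points ± 33.4, which did not pass the test (permutation test, adjusted p = 0.0876). It passed with 1 value per mouse and read window, chosen after seeing the data (−16.5 points, permutation adjusted p = 0.0128), and without young STD replicate 4 (−14.6 points, permutation adjusted p = 0.0421) or aged ENR replicate 6 (−15.0 points, permutation adjusted p = 0.0315). Without aged STD replicate 5, the 3 differences were 37.3, 47.0 and −9.74 points. The intron minus promoter difference averaged 44.0 ± 7.35 points for young STD, 30.1 ± 15.5 for aged STD and 36.9 ± 10.1 for aged ENR mice (SD, n = 8 each). The promoter class mixes the 28 CpGs of the main start with the 3 of the upstream start, so a mouse's promoter level depends on which of them it covers. Against the main start alone the difference averaged 50.1 ± 4.30, 42.2 ± 9.34 and 44.5 ± 7.03 points. Of the 19 exon CpGs, 18 lay only in exons of retained-intron transcripts and 1 (154414005) in an exon of protein-coding transcripts. In a single exon lay 16 of them, and the class level ranged from 0% in aged ENR replicate 6 to 100% in 5 mice. The mice were covered at different exon CpGs, but at the same 7 CpGs of that exon aged STD replicate 5 was at 100% and aged ENR replicate 6 at 0%.

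**Figure D2:**
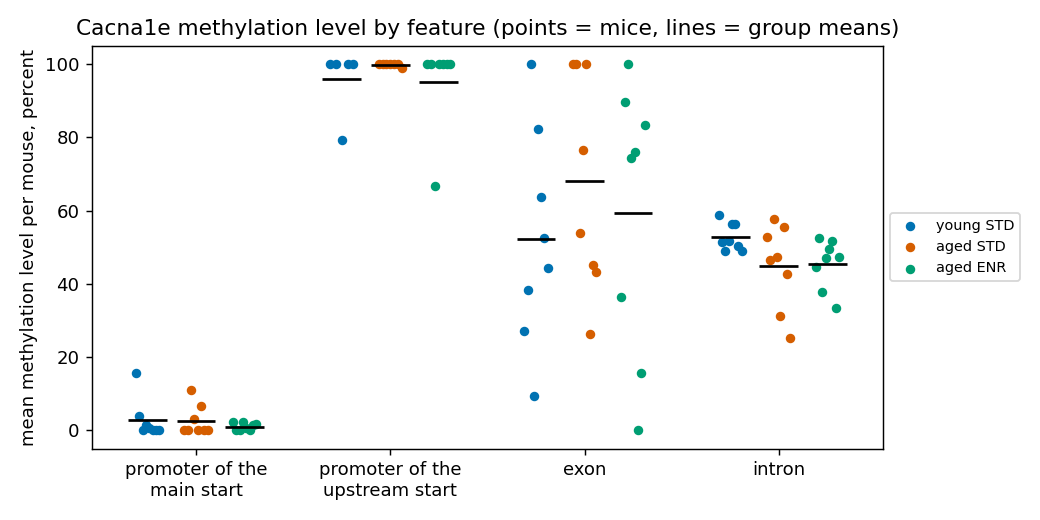
Mean methylation level per mouse in percent (points) and group means (lines) for the promoter CpGs of the main and the upstream start, exon CpGs and intron CpGs. The main start stayed between 0 and 15.7%, the upstream start between 66.7 and 100%, and exon levels spread from 0 to 100%.

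An aging difference over 25 points was present at 23 of the 118 CpGs, against 9.16% of all CpGs in the table. It was higher in aged STD mice at 11 (4.15% of all CpGs) and lower at 12 (5.01% of all CpGs). An ENR difference over 25 points was present at 26 CpGs, against 8.33% of all CpGs, 7 higher in aged ENR mice (3.82% of all CpGs) and 19 lower (4.51% of all CpGs). Opposite differences, both over 25 points, were present at 13 CpGs, against 3.49% of all CpGs, and since this count chose the gene nothing is read from it. At 9 of the 13 the level was higher in aged STD than in young STD mice and lower in aged ENR mice, and at 4 it was the reverse. One CpG passed both thresholds in the same direction (154706179, lower in both). None of the 13 was in the promoter class, 6 were exonic and 7 intronic.

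**Figure D3:**
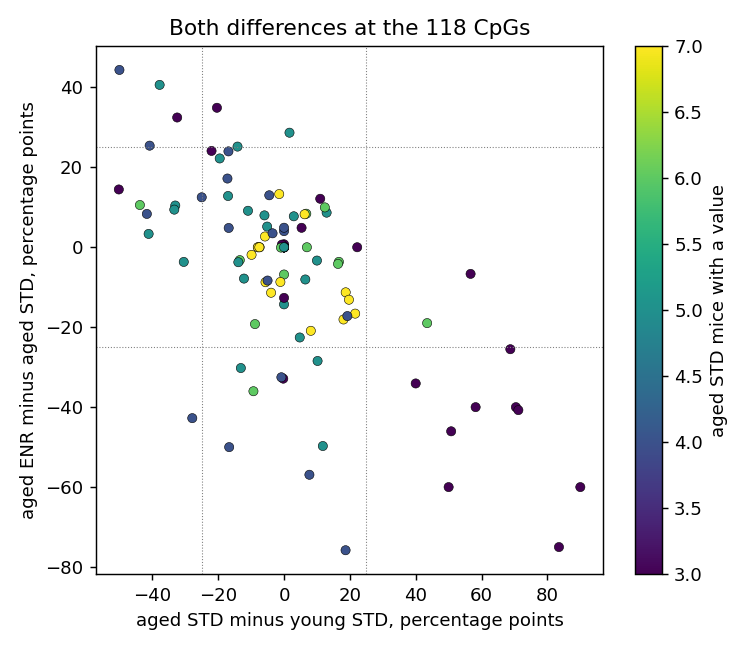
Aging difference against ENR difference in percentage points at the 118 CpGs, coloured by the number of aged STD mice with a value, with dotted lines at 25 points. The 9 CpGs at the lower right, higher in aged STD and lower in aged ENR mice, all had 3 aged STD mice.

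The 13 CpGs rested on few mice. They had 9 to 19 of 24 mice (median 13). Exactly 3 aged STD mice had a value at 10 of them and at 35 of the 118. In the full data this held for 10091 of 24248 CpGs with opposite differences and for 149061 of all 694379 CpGs. Of the CpGs in the full data with exactly 3 aged STD mice, 6.77% had opposite differences. Over the whole table this share was 0.651% at CpGs with 8 aged STD mice. Of the 43 Cacna1e CpGs with at least 5 mice per group, 1 had opposite differences, beside 1.64% of all such CpGs. At 12 of the 13 at least one group held both a mouse at 0% and a mouse at 100%. Young STD and aged STD values did not overlap at 3 of the 13, against 0.342% of all CpGs and 5.18% of all CpGs with opposite differences. Those 3 (154799529, 154799543 and 154799574) were read in the same 3 aged STD mice. Aged ENR and aged STD values overlapped at all 13, and they did not overlap at 0.295% of all CpGs and 4.65% of all CpGs with opposite differences.

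Of the 13, 6 lay in 1 stretch. The positions 154799529, 154799543, 154799574, 154799579, 154799582 and 154799598, all on the minus strand, lie within 70 bp in exon 2 (154799248 to 154799698) of Cacna1e-206, a retained-intron transcript with no annotated coding sequence, and inside an intron of the coding transcript Cacna1e-207, which starts at 154864067. A seventh CpG of the stretch, 154799539, had an aging difference over 25 points and an ENR difference of −6.67 points. Only 3 aged STD mice had values there, replicates 4, 5 and 7. Averaged over the stretch, young STD replicates 1, 4, 6, 7 and 8 were at 19.2%, 0%, 48.0%, 0% and 28.6%, and aged STD replicates 4, 5 and 7 at 85.5%, 100% and 85.7%. Aged ENR replicates 2, 4, 5, 6 and 7 were at 85.7%, 83.3%, 85.7%, 0% and 0%. Young STD and aged STD mice did not overlap, and aged ENR mice split into 3 within the aged STD range or near it and 2 at 0%. The means were 19.2% ± 20.4 (SD, n = 5), 90.4% ± 8.30 (n = 3) and 51.0% ± 46.5 (n = 5), an aging difference of 71.2 points and an ENR difference of −39.5 points.

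Single CpGs of the stretch mostly had like values within a mouse. At 154799529, young STD mice were at 0%, 0%, 50%, 0% and 0%, all 3 aged STD mice at 100%, and aged ENR replicates 2 and 4 at 100% with replicates 5, 6 and 7 at 0%. At 154799598 the aged STD mice were at 42.2%, 100% and 100%, young STD replicate 6 at 47.8% and the other 4 young STD mice at 0%, and aged ENR replicates 2 and 5 at 100% with the rest at 0%. At 154799579 and 154799582 the 3 aged STD mice were at 100%, aged ENR replicates 2, 4 and 5 at 100% and replicates 6 and 7 at 0%. Young STD replicate 8 was at 100% at both of these but at 0% at 154799529. Leaving out aged ENR replicate 6 or 7 brought the ENR difference to −25 points, no longer over 25, at 154799579 and 154799582, and to −10.5 points at 154799543, where it was −25.5 points with all mice and −18.3 points without aged STD replicate 5 or 7. At 154799543 it widened to −40 points without aged STD replicate 4. Leaving out aged ENR replicate 2, 4 or 5 widened it to −35.5 points there and to −50 points at 154799579 and 154799582. In 10 of the 13 mice every value in the stretch was exactly 0 or 100%, as were 83.6% of all values in the whole table. Some of these mice held both, such as young STD replicate 8 and aged STD replicate 7. The 7 CpGs were read on the same strand within 70 bp and in largely the same mice. They do not give independent counts of the locus.

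On the plus strand of the same exon no CpG had opposite differences. Its 9 CpGs lie 25 bp or more from the minus-strand stretch and were covered in 14 mice. They averaged 42.4% ± 35.5 (SD, n = 5) for young STD, 32.9% ± 28.8 (n = 5) for aged STD and 26.3% ± 27.9 (n = 4) for aged ENR mice. Aging differences over 25 points were present at 154799439 (−41.7 points) and 154799468 (−41.1 points), against the direction on the minus strand. ENR differences over 25 points were present at 154799453 (−50 points) and 154799473 (−30.2 points), in the direction seen on the minus strand. In the 8 mice with both strands, the strands lay 27.5 points apart on average, and 2 mice differed by over 50 points. Young STD replicate 7 was at 77.8% on the plus and 0% on the minus strand, and aged STD replicate 7 at 4.82% on the plus and 85.7% on the minus strand.

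**Figure D4:**
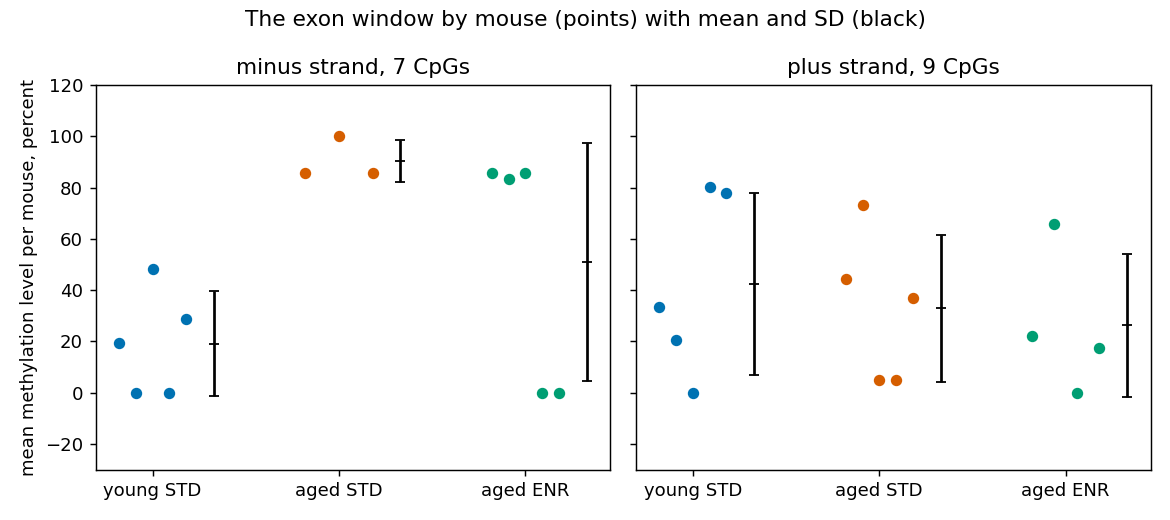
Mean methylation level per mouse in percent in the exon window, for the 7 minus-strand and the 9 plus-strand CpGs, with mean and SD in black. On the minus strand the 3 aged STD mice lie at 85.5% or above and all young STD mice at 48.0% or below, and on the plus strand the groups overlap.

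Aged STD replicate 5 was among the 3 aged STD mice of the stretch. Leaving it out leaves 2 such mice, below the minimum of 3, and the count of opposite-difference CpGs in the gene became 7. Leaving out aged STD replicate 4 or 7 also gave 7. When CpGs with 2 aged STD mice were kept, in an alternative chosen after seeing the data, 12 CpGs had opposite differences without replicate 5. With 1 value per mouse and read window (CpGs of one strand within 75 bp, also chosen after seeing the data), 5 of 48 windows had opposite differences, against 2.98% of all windows in the table. In these windows 11 had an aging difference over 25 points, against 8.59% of all windows, and 10 an ENR difference, against 7.85%.

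The other 7 opposite-difference CpGs were intronic. The one with the most mice, 154488322 on the plus strand (19 mice), was lower in aged STD mice by 37.8 points and higher in aged ENR mice by 40.6 points. Young STD replicates 2 to 8 were at 0%, 100%, 60.4%, 100%, 96.7%, 100% and 95.7%. Aged STD replicates 1, 2, 4, 5 and 7 were at 0%, 5.88%, 0%, 100% and 100%, and aged ENR replicates 1, 2, 4, 5, 6, 7 and 8 at 27.8%, 100%, 73.3%, 100%, 71.4%, 100% and 100%. The aged STD mice fell into 3 near 0% and 2 at 100%, and the groups overlapped. Without aged STD replicate 5 or 7 the differences were −52.5 and 55.3 points. They narrowed to −27.5 and 30.3 points without aged STD replicate 1 or 4, and to −29.0 and 31.8 points without replicate 2. The same-strand CpG 58 bp away, 154488380, had aged STD replicates 1, 2 and 7 at 37.1%, 0% and 100%, an aging difference of −20.4 points and an ENR difference of 34.9 points. On the opposite strand, at 154488381, aged STD mice were between 69.2% and 100% in all 7 covered mice.

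At 154416489 on the plus strand, aged STD replicates 1, 3 and 6 were at 100%, 100% and 85.7%, young STD replicates 3, 4, 5, 6 and 8 at 100%, 54.3%, 68.0%, 0% and 0%, and aged ENR replicates 2, 4, 5, 6 and 8 at 100%, 0%, 100%, 0% and 46.0%. This gave differences of 50.8 and −46.0 points with overlapping groups. The same-strand CpG 6 bp away, 154416495, had differences of 5.33 and 4.86 points, and 154416429 had 11.0 and 12.1 points. Averaged per mouse over these CpGs, the differences were 22.4 and −9.69 points. The remaining 5 opposite-difference CpGs were 154559879 (−40.8 and 25.4 points for aging and ENR), 154559927 (40 and −34.1), 154638720 (−32.5 and 32.5), 154815357 (−50 and 44.4) and 154865591 (50 and −60). The CpGs at 154559879 on the plus strand and 154559927 on the minus strand lie 48 bp apart and ran in opposite directions. At 154559927, leaving out aged STD replicate 5, or replicate 4, gave 26.7 and −20.7 points, so the ENR difference was no longer over 25 points. There the ENR difference was −14.4 points without aged ENR replicate 1, and the aging difference 23.3 points without young STD replicate 3 or 6. Leaving out aged STD replicate 6 instead widened both, to 66.7 and −60.7 points, and the aging difference was 73.3 points without young STD replicate 7 and the ENR difference −53.3 points without aged ENR replicate 8. At 154559879, both fell below 25 points without aged STD replicate 8 (−24.1 and 8.69 points), and the ENR difference lay between 19.3 and 24.1 points without aged STD replicate 3 or aged ENR replicate 5, 6 or 7. Without aged STD replicate 2 they widened to −57.4 and 42.0 points, and without aged ENR replicate 2 the ENR difference was 37.6 points. At 154815357, they were −33.3 and 27.7 points without aged STD replicate 2 or 7, and −66.7 and 61.0 points without aged STD replicate 3 or 6. At 154638720 the whole difference came from 1 mouse, aged STD replicate 4 at 2.63%, all 9 others being at 100%. At 154865591 every mouse was at 0% or 100%, aged STD at 100% in 3 of 3, young STD in 2 of 4 and aged ENR in 2 of 5.

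The 25-point threshold separated similar CpGs. For aging, 154706179 lay just inside (−27.9 points) and 154474347 just outside (−25 points, where 1 aged STD mouse of 4 was at 0% and the others at 100%). For ENR, 154723380 lay just inside (25.2 points, 1 aged ENR mouse of 5 at 100%) and 154600511 just outside (24.1 points).

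Values at the locus were mostly extreme. Of its 1775 values, 49.4% were exactly 0% and 29.4% exactly 100%, which together is 78.7%, beside 83.6% over the whole table. Neighbouring CpGs of a read window differed by a median of 0 points within a mouse, and 81.2% of 1022 such pairs were within 10 points. This share was 95.1% of 329 promoter pairs and 73.8% of 191 exon pairs, of which 18.3% were over 50 points apart. For CpGs averaging 10 to 90%, 69.9% of 365 pairs were within 10 points and 16.2% over 50 points apart. Both strands of 4 CpG dinucleotides were measured, in 48 mouse values, of which 32 were within 10 points and 7 differed by over 50 points. Of the 2 with the most mice, 154723437 and 154723438 were within 10 points in 12 of 16 mice, and 154488380 and 154488381 in 5 of 14, where aged STD replicate 2 was at 0% on the plus and 100% on the minus strand.

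A mouse's deviation at Cacna1e, taken from its group mean, was compared with its deviation over the rest of the table. Pearson's r was −0.43 (permutation within groups, p = 0.0414, n = 24) and Spearman's rho −0.32 (permutation p = 0.118). Without the 2 mice farthest from the median, aged STD replicate 5 and young STD replicate 8, r was −0.15 (permutation p = 0.518), so the relation rested on those mice. Without aged STD replicate 5 alone, r was −0.24 (permutation p = 0.293).

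Among the other calcium channel genes, 74 of 1612 CpGs (4.59%) in 25 genes had opposite differences, against 3.49% of all CpGs. Aging differences over 25 points were higher at 84 and lower at 97, against 4.15% and 5.01% of all CpGs, and ENR differences higher at 87 and lower at 93, against 3.82% and 4.51%. The 9 other pore subunits had 38 of 773 (4.92%). Cacna1g, a T-type channel pore, had 6 of 70. Cacna1c, the L-type pore of neurons and heart, had 10 of 245, and Cacna1a, the P/Q-type pore of presynaptic terminals, 7 of 88. Cacna1h, another T-type pore, had 1 of 79, Cacna1b, the N-type pore, 1 of 35, Cacna1d, an L-type pore, 4 of 126, Cacna1i, a T-type pore, 4 of 75, Cacna1s, the skeletal muscle pore, 3 of 35, and Cacna1f, the retinal L-type pore, 2 of 20. The alpha2delta subunits, which aid surface expression, had 17 of 378, the beta subunits, which bind the pore inside the cell, 9 of 239, and the gamma subunits 10 of 222. Of the gamma genes, Cacng2 had 5 of 39 (12.8%) and Cacng5 2 of 11 (18.2%), both larger shares than the 11.0% of Cacna1e. These 2 were named after their values were seen.

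The genes whose per-mouse deviation was most like that of Cacna1e, among 2381 protein-coding genes with at least 60 CpGs, were Gm49711 (Pearson's r = 0.66 over 24 mice), Fndc3a (0.59), Mrps6 (0.56), Slc5a3 (0.56) and Tbc1d30 (0.56). Without aged STD replicate 5 the values were 0.61, 0.62, 0.44, 0.44 and 0.53, and only 2 of the 5 stayed among the 5 highest. Gm49711, Mrps6 and Slc5a3 overlap and share 61 CpGs, so they are 1 observation. The points share libraries and coverage, and the highest r of 2381 genes is high by selection.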

How the data were processed

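RRBS was run on dentate gyrus DNA of 24 mice. The authors trimmed reads with Trim Galore and cutadapt, mapped them to mm10 with Bismark and used methylKit to keep CpGs within coverage limits that were covered by 3 or more mice per group. The submitters' processing notes give Trim Galore 0.4.0, cutadapt 1.8.1, Bismark 0.16.1 and methylKit 1.5.2, and the study's methods name other releases of Trim Galore and Bismark. The authors deposited the methylation percent of each CpG and mouse, strands separate, without read counts. Cutoffs on reads affect which mice have a value.

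From these, group means were computed per CpG. Feature classes were compared within mice by 100000 sign flips, coverage by exact permutation and mouse deviations by permutation within groups, with Benjamini-Hochberg adjustment. Alternatives were other mouse minimums, thresholds, medians, averaged strands, nearest starts, a replicate block and leaving out each mouse. Starts and exons came from GENCODE M21 (Ensembl 96). Python 3.11.15, numpy 2.4.6, pandas 2.3.3, scipy 1.17.1 and matplotlib 3.10.9 were used, and procedures were tested on simulated data. Named CpGs were the 6 opposite-difference CpGs with the most mice (ties broken by the larger sum of both absolute differences), those on either side of 25 points, and the dyads with the most mice. Other CpGs given with values were picked after their values were seen. The members and lists were chosen with earlier results of these data known. Replicate numbers 1 to 8 are shared by different animals, and same-numbered mice did not deviate together (mean correlation −0.00387).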

Additional observations from a re-analysis of the deposited data

Results flagged for a closer look

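In groups of 4 to 10 mice, a mouse far from the others was seen in 11 of 42 groups of values, where chance alone gives about 1 in 20 groups. Many values were exactly 0 or 100%, and how often this gives such gaps was not tested. Over the locus, young STD replicate 4 had the lowest mean level of its group (28.7%), and young STD replicate 5 the highest deviation (12.0 points). At 154474347, aged STD replicate 4 was at 0% and aged ENR replicate 8 at 50%, all other mice of both groups being at 100%. At 154488322, young STD replicate 2 was at 0% and aged ENR replicate 1 at 27.8%. At 154706179, young STD replicate 7 was at 0% and aged ENR replicate 5 at 17.5%. At 154723380, aged ENR replicate 6 was at 100%, the other 4 lying at 17.1% or below. In the exon stretch, young STD replicate 6 was at 50% at 154799529 and at 47.8% at 154799598, the other 4 young STD mice being at 0%.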

How the results depend on the processing

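With at least 5 mice in each group, 43 CpGs remained, with 5 aging, 5 ENR and 1 opposite differences, the last beside 1.64% of all such CpGs. For the aging and ENR counts the share of all such CpGs was not computed, so nothing is read from them. Over 40 points there were 12 ENR and 6 opposite differences. The shares of all CpGs over 40 points were not computed, so nothing is read from these counts. With 1 value per read window there were 11, 10 and 5 of 48. Leaving out each mouse in turn gave 15 to 26 aging, 18 to 28 ENR and 7 to 14 opposite differences. Part of this is by construction, since CpGs below 3 mice drop out. Aging counts fell to 15 without aged STD replicate 4 or 7. With the 20-point threshold, medians, averaged strands and nearest start (15 of 129 opposite) the counts stayed within 1.5 times. Single CpGs moved more. With medians, the ENR difference was 0 at 154799543, 154799579 and 154799582. It was −100 points at 154799529, 154799574, 154799598 and 154865591. Both differences were 0 at 154638720, and they were −90.8 and 94.1 points at 154488322.

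Intron minus exon passed with 1 value per read window (−16.5 points, permutation adjusted p = 0.0128) and without young STD replicate 4 or aged ENR replicate 6 (range over mice left out −15.0 to −9.74). No exon CpG had 5 mice in each group, so the exon comparisons gave no value there. The correlation turned to 0.13 with at least 5 mice in each group (permutation p = 0.666), was −0.15 without the 2 farthest mice, and ranged from −0.50 to −0.24 with 1 mouse left out, past the threshold only in part.

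Same-numbered mice are different animals. With the replicate block, the coverage differences were −7.50 (exact sign-flip p = 0.430) and 10.8 CpGs (exact p = 0.297), and no call changed. Values at CpGs covered in few mice are the least certain.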
